A study of Homo sapiens with 4 samples.

Results

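The genes described here build the centromere and kinetochore, run the spindle checkpoint, or drive entry into and exit from mitosis. They were chosen by symbol, 40 genes in all, and each of the 40 was found among the 28063 symbols of every count table. KELLY is an established human neuroblastoma cell line. Its cells received a lentiviral vector for FLAG-tagged IWS1, a protein that travels with elongating RNA polymerase II and binds other elongation factors through short motifs called TIMs. In WT libraries the tagged protein was wild type, and in M3 libraries it carried a mutation that disrupts the motif TIM3. All cells grew in DMEM containing 10% fetal bovine serum, had been through selection in puromycin at 1 ug/ml, and were collected at 50% confluency. Poly(A) RNA was sequenced from 2 WT and 2 M3 libraries, called WT 1, WT 2, M3 1 and M3 2 below. No library without a vector was analysed here, and neither the promoter of the vector nor the state of the endogenous IWS1 gene was given in the sources used here. Nothing in the labels says that the libraries of a group came from separate cultures, so p-values measure only how far these libraries differ, and that spread may be technical.

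The centromere is marked by nucleosomes that contain the histone variant CENPA. A set of inner kinetochore proteins, the constitutive centromere-associated network, sits on this chromatin and carries the outer kinetochore, whose NDC80 complex grips spindle microtubules. Kinetochores without microtubules produce the spindle checkpoint signal, which holds CDC20 inactive until every chromosome is attached, while Aurora B and its partners correct faulty attachments. Many of these genes are transcribed in G2 and mitosis and are kept silent earlier in the cycle, so in a culture their summed RNA depends on how many cells are dividing. In bulk RNA, fewer cells in mitosis and less RNA per mitotic cell cannot be told apart.

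Promoters of genes of this kind are known for CCAAT boxes, bound by NF-Y, and for the cell cycle genes homology region (CHR), bound by the DREAM and MYB-MuvB complexes. RefSeq promoter windows on GRCh38.p14, from 250 bases before to 50 bases after the transcription start, were at hand for 31 of the 40 genes and gave 38 windows. CCAAT was found on either strand in 27 of these 38 windows (71.1%), against 34.6% of all 35116 windows of the same length. The CHR letters, TTTGAA or TTCGAA, were in 57.9% of the members' windows and in 16.4% of all windows. CCAAT and CHR letters stood together in 44.7% and in 6.38%. E2F-type letters, TTCCCGC or TTGGCGC, were in 21.1% of the members' windows and in 9.23% of all windows. The searched motifs do not overlap in the stretches printed here. The windows of CENPE and GAS2L3, the members with the largest called rises, held none of these letters. The only GAS2L3 window, chr12:100593368-100593667, lies inside the gene, which starts at 100573684 in RefSeq. The bases before that first start of GAS2L3 were thus not searched. A match is only a match of letters, and the absence of one says only that the letters are not in the window.

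The last 140 bases before a transcription start are shown for AURKB, CENPC, CENPF and BUB1, which passed the test described below. CDC20 and CCNB1, which did not pass it, are shown as well. These genes were picked among those whose stretch holds CCAAT or CHR letters, so that each holds some is no result. Capitals mark CCAAT or CHR letters, which read ATTGG or TTCAAA where they lie on the opposite strand. Each sequence is read 5′ to 3′ on the strand of its gene.
AURKB: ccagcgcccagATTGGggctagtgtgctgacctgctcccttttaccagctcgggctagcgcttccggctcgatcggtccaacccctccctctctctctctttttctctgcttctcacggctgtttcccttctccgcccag
CENPC: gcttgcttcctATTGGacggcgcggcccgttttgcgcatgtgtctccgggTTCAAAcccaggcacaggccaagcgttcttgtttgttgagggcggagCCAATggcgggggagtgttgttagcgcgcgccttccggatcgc
CENPF: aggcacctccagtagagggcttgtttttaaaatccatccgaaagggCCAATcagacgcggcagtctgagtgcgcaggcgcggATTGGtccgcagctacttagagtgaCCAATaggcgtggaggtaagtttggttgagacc
BUB1: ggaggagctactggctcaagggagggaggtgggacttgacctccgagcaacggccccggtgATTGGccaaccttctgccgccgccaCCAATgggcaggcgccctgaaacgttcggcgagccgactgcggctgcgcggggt
CDC20: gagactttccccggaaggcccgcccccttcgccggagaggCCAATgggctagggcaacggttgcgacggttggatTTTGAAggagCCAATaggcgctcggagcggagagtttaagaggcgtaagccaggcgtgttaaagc
CCNB1: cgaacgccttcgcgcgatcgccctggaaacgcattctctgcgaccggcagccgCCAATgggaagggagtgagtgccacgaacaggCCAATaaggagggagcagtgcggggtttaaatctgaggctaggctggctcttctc
The AURKB stretch is chr17:8210250-8210389 on the minus strand, and that of CENPC is chr4:67545504-67545643 on the minus strand. The AURKB gene reaches to 8210575 in RefSeq, so its stretch lies inside the gene, before an alternative start. The CENPF stretch is chr1:214603055-214603194 on the plus strand, and that of BUB1 is chr2:110678064-110678203 on the minus strand. The CDC20 stretch is chr1:43358841-43358980 on the plus strand, and that of CCNB1 is chr5:69167010-69167149 on the plus strand. AURKB, which was lower in M3, held 1 CCAAT match in this stretch, and CENPF, which was higher, held 3. The other 4 genes, which rose (CENPC and BUB1) or did not pass (CDC20 and CCNB1), held 2 each. CENPC and CDC20 held CHR letters, 90 and 65 bases before the start. BUB1 and CENPF held CHR letters after the start, in the window but outside the printed stretch.

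Gene counts totalled 13645171 and 20962372 in WT 1 and WT 2, and 12289685 and 13581628 in M3 1 and M3 2. The 40 members together took 0.284% and 0.309% of them in WT and 0.353% and 0.346% in M3. Reads assigned to no feature were 23.3% and 23.2% of all counted reads in WT, against 27.5% and 25.6% in M3, and their part in the results was not tested. The WT libraries stood apart from each other: per degree of freedom, chi-square between their counts was 22.4, against 4.45 between the M3 libraries. Between a WT and an M3 library it ran from 23.6 (WT 2 and M3 2) to 72.1 (WT 1 and M3 1). This statistic grows with read depth, and WT 2 had the most counts. IWS1 had 370 and 394 CPM (reads scaled to library size, with TMM factors) in WT and 596 and 599 in M3, a log2 difference of 0.65 ± 0.12 (SE; adjusted p = 0.0225, edgeR's quasi-likelihood test). The call was lost without either M3 library, with adjusted p = 0.215 without M3 1 and 0.138 without M3 2. Reads of the vector and of the endogenous gene may be counted together, so this level does not check which form a library expressed. The 10 neuroblastoma markers summed to 7319 and 6848 CPM in the WT pair and 5665 and 5797 in the M3 pair, and PHOX2A, TH and DBH among them fell (log2 differences of -0.73, -0.59 and -0.71). Marker sums of other cell types stayed low: 1.56 to 3.09 CPM for 4 haematopoietic genes (2 of them at 0 in every library), 2.91 to 6.97 for 5 epithelial, 0.312 to 1.04 for 3 endothelial, 6.51 to 26.3 for 4 fibroblast and 4.13 to 6.89 for 5 Schwann and glial genes (1 at 0).

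Of the 40 members, 5 rose in M3 and 1 fell by edgeR's quasi-likelihood test at an adjusted p under 0.05, and 34 did not pass. Those that rose were GAS2L3, CENPE, CENPC, CENPF and BUB1, and the one that fell was AURKB. The share called, 15.0% of members, lay near the background of 15.8% of all 14141 genes tested, of which 9.16% were higher in M3 and 6.63% lower. All 40 members passed the filter on low counts, with 16 to 10738 reads per library. Their median log2 fold change was 0.00, beside -0.01 for all tested genes, and 20 of 40 lay above 0. Fold changes ran from -0.76 for AURKB to 1.10 for GAS2L3. The M3 and WT libraries did not overlap for 27 members, 16 higher and 11 lower in M3. Across all tested genes the corresponding shares were 34.0% and 34.1%. At an unadjusted p under 0.05, 17 members and 35.9% of all tested genes passed.

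**Figure D1:**
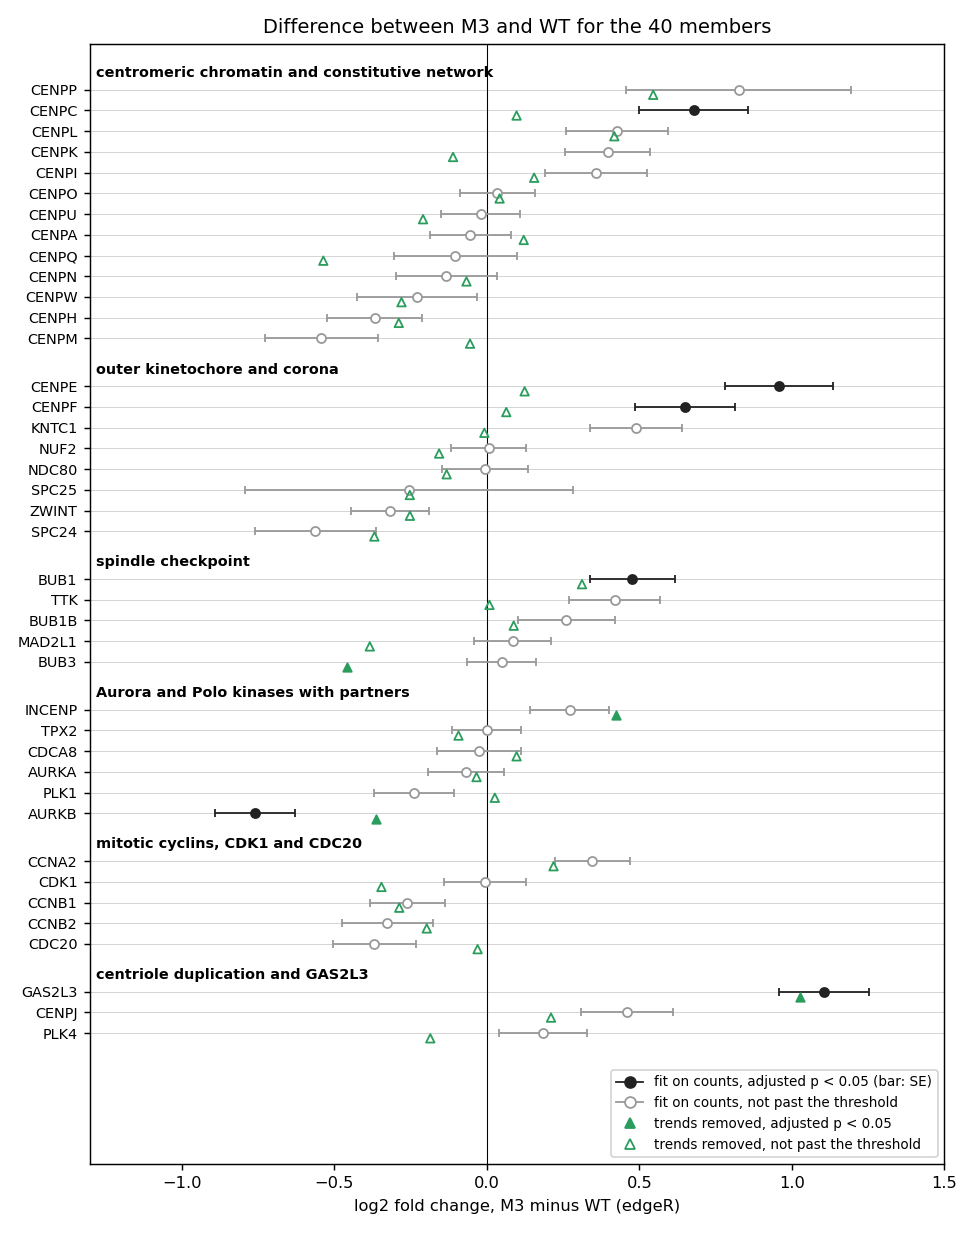
Log2 fold change between M3 and WT (horizontal axis) for each of the 40 members, grouped by role, with circles and bars for the fit on counts and its SE, and triangles for the fit with trends in transcript length and GC content removed. The called members sit between 0.48 and 1.10 or at -0.76, and the triangles of CENPE, CENPC and CENPF lie at 0.12, 0.10 and 0.06.

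Among the 13 genes of centromeric chromatin and the constitutive network, CENPC rose and the other 12 did not pass the test. The share of all tested genes that rose was 9.16%. The group's median log2 fold change was -0.02, and its summed level was 562 and 485 CPM in WT, compared with 493 and 504 in M3. CENPC is the scaffold that joins CENPA nucleosomes to the outer kinetochore. It had 11.8 and 15.5 CPM in WT 1 and WT 2, and 23.0 and 21.1 in M3 1 and M3 2. The M3 libraries were both above the WT pair, and WT 2 lay between WT 1 and M3. The difference was 1.60-fold, 0.68 ± 0.18 on the log2 scale (SE, adjusted p = 0.0402). Without M3 1 the adjusted p of CENPC was 0.251, and without M3 2 it was 0.077. With total-count scaling it was 0.0556.

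CENPP, a member of the CENPO subcomplex of the network, had the largest fold change of the group but few reads, 16 and 48 in WT and 38 and 50 in M3. These gave 1.28 and 2.28 CPM in WT, against 2.96 and 3.55 in M3. The groups did not overlap, yet the difference of 0.83 ± 0.37 on the log2 scale did not pass (adjusted p = 0.144, edgeR). CENPO, the most abundant of the 13 by CPM, had 82.7 and 90.4 CPM in the WT pair and 88.4 and 89.0 in the M3 pair. Its libraries overlapped, and its log2 difference was 0.03 ± 0.12. CENPA itself, the centromeric histone, had 32.9 and 32.8 CPM in WT, compared with 31.2 and 32.1 in M3. These are close values in all 4 libraries, with a log2 difference of -0.05 ± 0.13.

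The remaining network genes did not pass in either direction. CENPL, CENPK and CENPI, which lay higher in both M3 libraries, had log2 differences of 0.43, 0.40 and 0.36. CENPM and CENPH, which lay lower in both, had -0.54 and -0.37. CENPM is a small protein of the CENPH, CENPI and CENPK subcomplex, and its level split the WT pair: 103 CPM in WT 1 and 69.1 in WT 2, beside 58.2 and 59.7 in M3. CENPW, a histone-fold partner of CENPT, showed the same division, with 58.2 CPM in WT 1 and at most 41.9 in the other 3 libraries (log2 difference -0.23 ± 0.20). CENPN, which reads the CENPA nucleosome, had 85.4 CPM in WT 1 and 62.8 to 70.7 elsewhere. For these 3 genes the high library was WT 1, and WT 2 was near M3. CENPQ, CENPU and CENPN had log2 differences of -0.10, -0.02 and -0.13, each under its SE.

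In the outer kinetochore and its corona, 2 of 8 genes rose and none fell, beside 9.16% and 6.63% of all tested genes. Both are long proteins of the corona, the outermost layer that forms before microtubules attach. CENPE is the kinesin that carries chromosomes to the spindle equator. It had 37.0 and 53.2 CPM in WT, against 91.4 and 84.7 in M3. The groups were well apart, with WT 1 the lowest library. The difference was 1.94-fold, 0.96 ± 0.18 on the log2 scale (SE, adjusted p = 0.0224, edgeR). CENPE kept its call without any 1 of the 4 libraries, with values from 0.72 without WT 1 to 1.25 without WT 2.

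CENPF, a coiled-coil protein that binds microtubules and dynein adaptors, is the most abundant member by CPM. It had 384 and 510 CPM in the WT pair and 737 and 666 in the M3 pair. Both M3 libraries were higher than both WT libraries, and WT 1 was again the lowest. The log2 difference was 0.65 ± 0.16 (SE, 1.57-fold, adjusted p = 0.0362, edgeR). Adjusted p became 0.315 without M3 1 and 0.103 without M3 2. CENPF alone made up 12.4% to 21.8% of the members' summed level in a library. With it, the 40 members summed to 3107 and 3079 CPM in WT, compared with 3384 and 3335 in M3. Without it, the other 39 summed to 2722 and 2569 in WT and 2647 and 2669 in M3, and the groups overlapped.

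The 4 subunits of the NDC80 complex did not pass. NDC80 and NUF2, which form its microtubule-binding end, had log2 differences of -0.00 ± 0.14 and 0.01 ± 0.12. SPC24, at the end that faces the centromere, had 148 CPM in WT 1, 93.3 in WT 2, 81.8 in M3 1 and 81.2 in M3 2. WT 1 was far above the other 3, and the difference was -0.56 ± 0.20 (adjusted p = 0.0822, edgeR). Its partner SPC25 had 125 and 147 reads in WT, 146 in M3 1 and 40 in M3 2. As CPM these were 10.0 and 6.98 in WT, 11.4 in M3 1 and 2.84 in M3 2, so the M3 pair held both the highest and the lowest library. The log2 difference of SPC25 was -0.25 ± 0.54 with all libraries, -1.57 without M3 1 (adjusted p = 0.0104) and 0.43 without M3 2. KNTC1, a subunit of the RZZ complex that brings dynein and MAD1 to the kinetochore, had 0.49 ± 0.15 (adjusted p = 0.0584). ZWINT, which links that complex to the outer kinetochore, had -0.32 ± 0.13 (adjusted p = 0.111). The group's sum was 881 and 972 CPM in WT, against 1239 and 1158 in M3, and much of it was CENPF.

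Of the 5 spindle checkpoint genes, BUB1 rose and 4 did not pass, where 9.16% of all tested genes rose. BUB1 is the kinase that marks the inner centromere and gathers checkpoint proteins at kinetochores. It had 21.6 and 22.7 CPM in the WT pair and 31.6 and 30.2 in the M3 pair. The pairs were tight and apart from each other. The difference was 0.48 ± 0.14 on the log2 scale (SE, 1.39-fold), and the adjusted p of 0.0498 from edgeR lay just under the threshold. It was 0.422 without M3 1 and 0.234 without M3 2, and above 0.05 under upper-quartile, median-of-ratios and total-count scaling and with DESeq2 and limma-voom.

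BUB3, which carries BUB1 and BUBR1 to kinetochores, was the most abundant checkpoint gene. It had 160 and 158 CPM in WT, compared with 160 and 169 in M3. The 4 libraries overlapped, with a log2 difference of 0.05 ± 0.11. TTK, the kinase MPS1 that starts the checkpoint signal, had 0.42 ± 0.15 (adjusted p = 0.0836, edgeR). BUB1B, which encodes BUBR1, had 0.26 ± 0.16, with 84.1 CPM in WT 1 and 115 in WT 2 against 119 and 120 in M3. MAD2L1, which encodes the MAD2 protein that binds CDC20, had 0.08 ± 0.13. All 5 checkpoint genes had values above 0 on counts, with a median of 0.26, where 7008 of 14141 tested genes lay above 0. With trends in transcript length and GC content removed, as described below, the median was 0.0088, and BUB3 (-0.46) and MAD2L1 (-0.38) lay below 0.

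AURKB was the only member of the 40 that fell, and the only one of 6 Aurora and Polo kinases and partners that passed in either direction. It encodes the kinase of the chromosomal passenger complex, which destabilises faulty attachments. AURKB had 99.4 and 89.3 CPM in WT, against 53.5 and 57.8 in M3. Both M3 libraries were below both WT libraries, by more than the gap within either pair. The difference was 1.69-fold, -0.76 ± 0.13 on the log2 scale (SE, adjusted p = 0.0204, edgeR). Without M3 1 the adjusted p of AURKB rose to 0.132, and without M3 2 it was 0.038. Other subunits of the same complex did not pass: INCENP, its scaffold, had 0.27 ± 0.13 (adjusted p = 0.169), and CDCA8, which encodes borealin, had -0.02 ± 0.14. Whether AURKB differed from INCENP or CDCA8 in its change was not tested.

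TPX2, the spindle protein that activates Aurora A, was the most abundant of this group. It had 287 and 281 CPM in the WT pair and 284 and 284 in the M3 pair. The libraries overlapped, with a log2 difference of -0.00 ± 0.11. AURKA, which encodes Aurora A, had -0.07 ± 0.13. PLK1, the Polo kinase of mitotic entry and kinetochores, had -0.24 ± 0.13 with 127 and 107 CPM in WT, compared with 97.9 and 100 in M3. Its groups did not overlap, and its adjusted p was 0.219 (edgeR). Summed levels of the 6 genes were 783 and 757 CPM in WT, against 736 and 737 in M3.

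None of the 5 genes for mitotic cyclins, CDK1 and CDC20 passed in edgeR's test, and their median log2 fold change was -0.26. Both M3 libraries lay below both WT libraries for CCNB1, CCNB2 and CDC20, above them for CCNA2, and overlapped them for CDK1. Of all tested genes, 34.1% likewise lay lower in M3 without overlap and 34.0% higher. CDC20 activates the anaphase-promoting complex and is the target of the checkpoint. It had 82.9 and 73.1 CPM in the WT pair and 56.8 and 63.9 in the M3 pair. Both M3 libraries were lower, and the difference was -0.37 ± 0.14 (adjusted p = 0.0905). CCNB1, the cyclin that drives CDK1 into mitosis, had 128 and 125 CPM in WT, compared with 99.8 and 112 in M3. Its groups did not overlap either, with -0.26 ± 0.12 (adjusted p = 0.159). CCNB2 had -0.33 ± 0.15 and CDK1 -0.01 ± 0.13. CCNA2, the cyclin of S phase and early mitosis, lay on the other side at 0.35 ± 0.12 (adjusted p = 0.0831).

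GAS2L3 had the largest fold change of all members. It encodes a linker of actin and microtubules that acts in cytokinesis, and it is grouped here with PLK4 and CENPJ, which build centrioles. GAS2L3 had 16.9 and 19.5 CPM in WT, against 40.5 and 38.1 in M3. The groups were far apart and each pair was tight. The difference was 2.15-fold, 1.10 ± 0.15 on the log2 scale (SE, adjusted p = 0.0185, edgeR), and it passed without any 1 of the 4 libraries. CENPJ, a centriole elongation protein that carries a CENP name but is no part of the kinetochore, had 23.2 and 28.1 CPM in the WT pair and 36.3 and 34.6 in the M3 pair. Its groups did not overlap, with 0.46 ± 0.15 (adjusted p = 0.0665). PLK4, the kinase that starts centriole duplication, had 0.18 ± 0.14.

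**Figure D2:**
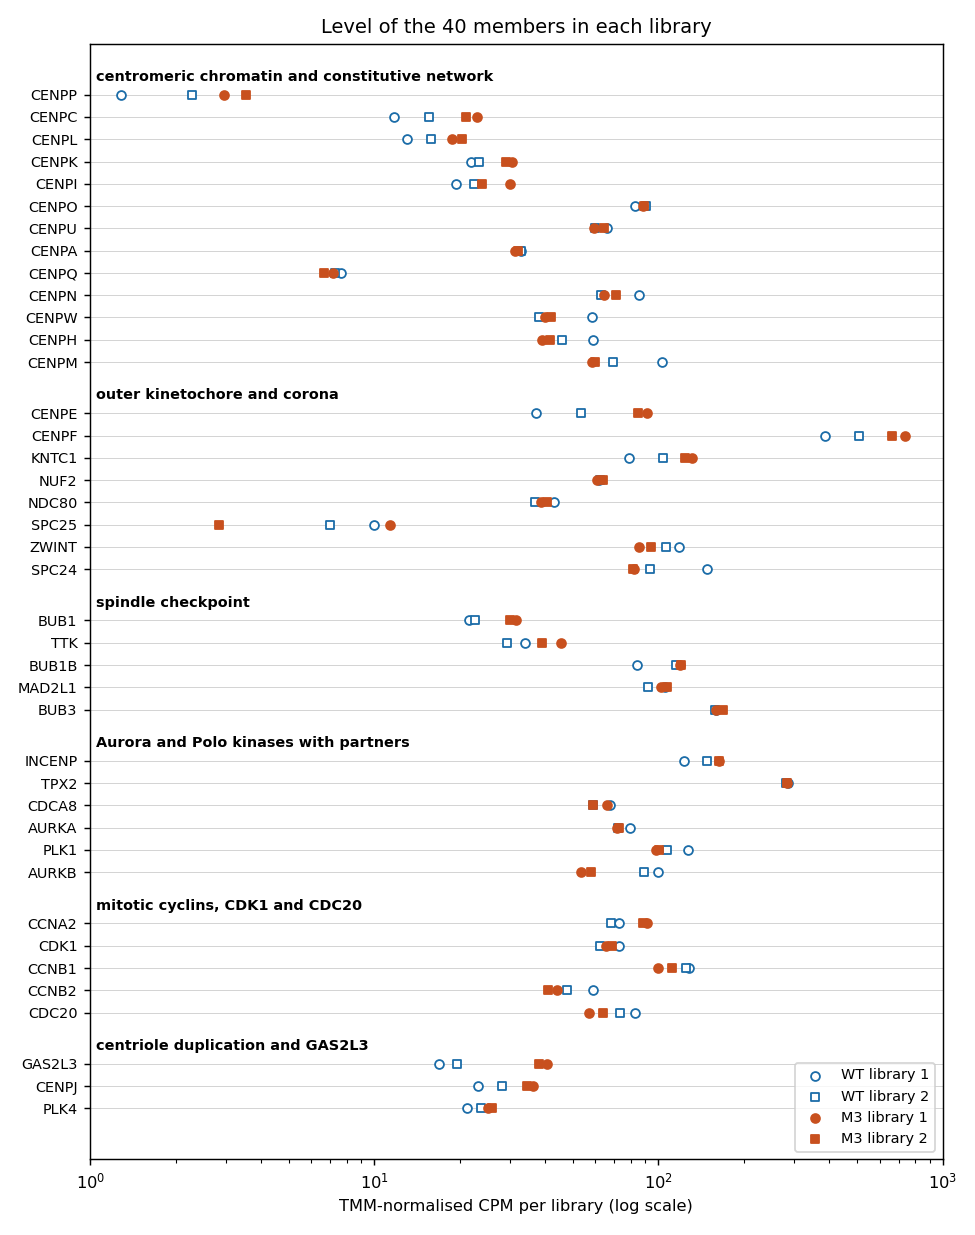
Level of each of the 40 members (TMM-scaled CPM, log axis) grouped by role, with 1 point per library. CENPE, CENPF and GAS2L3 lie higher in both M3 libraries, AURKB lies lower in both, and the points of TPX2 and BUB3 fall on top of one another.

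Fold changes of the members followed the length of their transcripts. Over the 40 members, the log2 fold change and log2 transcript length had Pearson's r = 0.68 and Spearman's rho = 0.73, and over all tested genes r = 0.43, as descriptions across genes that share the same 4 libraries. The 10 shortest members, 750 to 1777 nt, had a median of -0.29 and 9 of 10 lay below 0. The 10 longest, 3841 to 10307 nt, had a median of 0.47 and all 10 lay above 0. CENPF (10307 nt), CENPE (8612 nt) and CENPC (6940 nt) belong to the long end, and AURKB (1227 nt) to the short end. GAS2L3 (2340 nt) and BUB1 (3507 nt) lie between. With GC content, which is lower in the members (median 42.3%) than in all tested genes (49.3%), r was -0.43 over members and -0.49 over all.

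The same trend with length was present between libraries of 1 group. The log2 difference of WT 2 minus WT 1 had r = 0.73 with log2 length over the 40 members and 0.31 over all tested genes. M3 2 minus M3 1 had r = 0.09 over members but rho = -0.25. Over all tested genes this M3 difference had r = -0.15 and rho = -0.29, the opposite sign to the WT pair. WT 2 lay between WT 1 and the M3 mean for 25 of 40 members, and for 62.5% of all tested genes. The median size of the log2 difference within a pair was 0.21 for WT and 0.08 for M3 over the members. Without WT 1 the members' r with length was 0.55, and without WT 2 it was 0.73.

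When smooth trends in length and GC content were removed from every library before the fit, 2 members were higher in M3 and 2 lower, beside a background of 4.97% of genes called (2.16% higher and 2.81% lower). GAS2L3 kept its rise almost whole, at 1.03 (adjusted p = 0.00464, edgeR). AURKB remained lower at -0.36 (adjusted p = 0.0493). CENPE, CENPC, CENPF and BUB1 no longer passed: CENPE went from 0.96 to 0.12 (adjusted p = 0.507), CENPC to 0.10 (0.725), CENPF to 0.06 (0.743) and BUB1 to 0.31 (0.148). INCENP, the most GC-rich member (60.1%), now passed as higher at 0.42 (adjusted p = 0.0418), and BUB3 as lower at -0.46 (adjusted p = 0.0493), the opposite sign to its value on counts. Only GAS2L3 and AURKB were thus called in the same direction by both fits. The 10 longest members then had a median of 0.05 and the 10 shortest -0.22. With the longest transcript of each gene in place of the principal one, a choice made after seeing the data, GAS2L3 stood at 1.01.

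**Figure D3:**
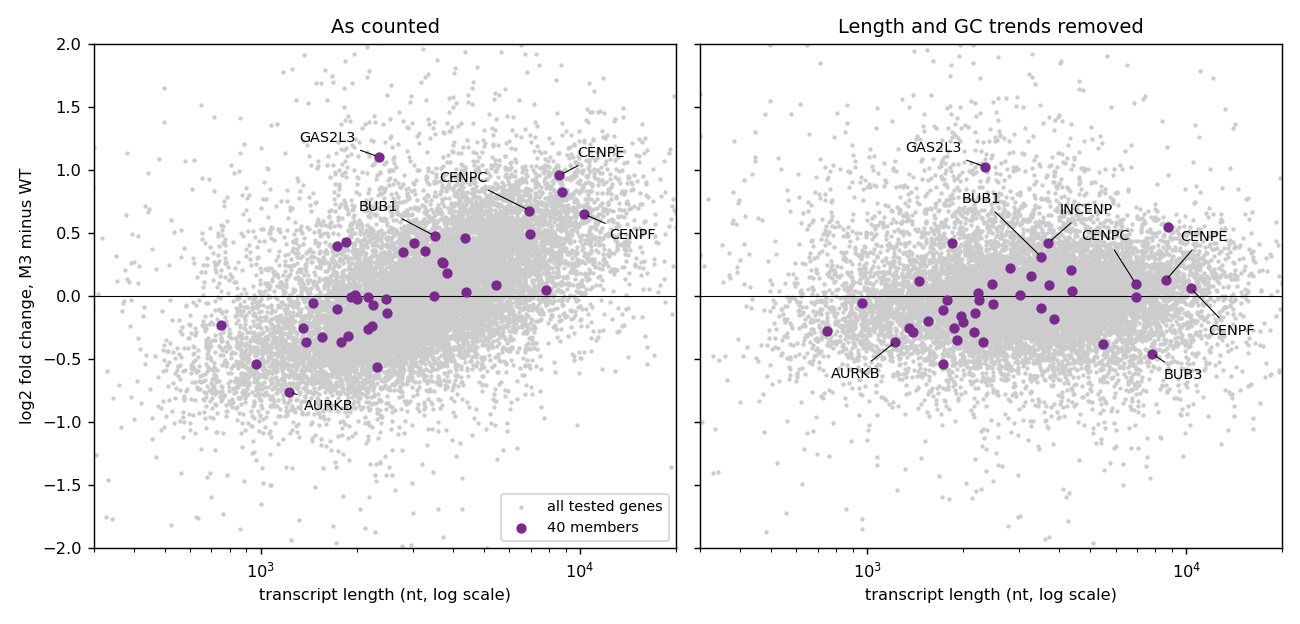
Log2 fold change between M3 and WT against transcript length (nt, log axis) for all tested genes with a transcript (grey; those beyond the axis range are not drawn) and the 40 members (purple), as counted on the left and with length and GC trends removed on the right. On the left the longest members lie above 0 and the shortest mostly below, and on the right GAS2L3 remains at 1.03 while CENPE, CENPC and CENPF lie near 0.

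Leaving out 1 library changed how many members passed. Without WT 1, 8 members were higher and 2 lower, beside a background of 24.1% of tested genes called. CCNA2, KNTC1 and TTK joined the rises and CDC20 the falls. Without WT 2, 14 were higher and 11 lower (background 46.2%). Without M3 1, CENPE and GAS2L3 were higher and SPC25 lower (background 2.47%). Without M3 2, CENPE and GAS2L3 were higher and AURKB lower (background 7.33%). The group left with 1 library was assumed to vary like the other. The fits that called more genes over the whole table also called more members, except that both fits without an M3 library called 3. GAS2L3 and CENPE were the members that passed in every one.

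**Figure D4:**
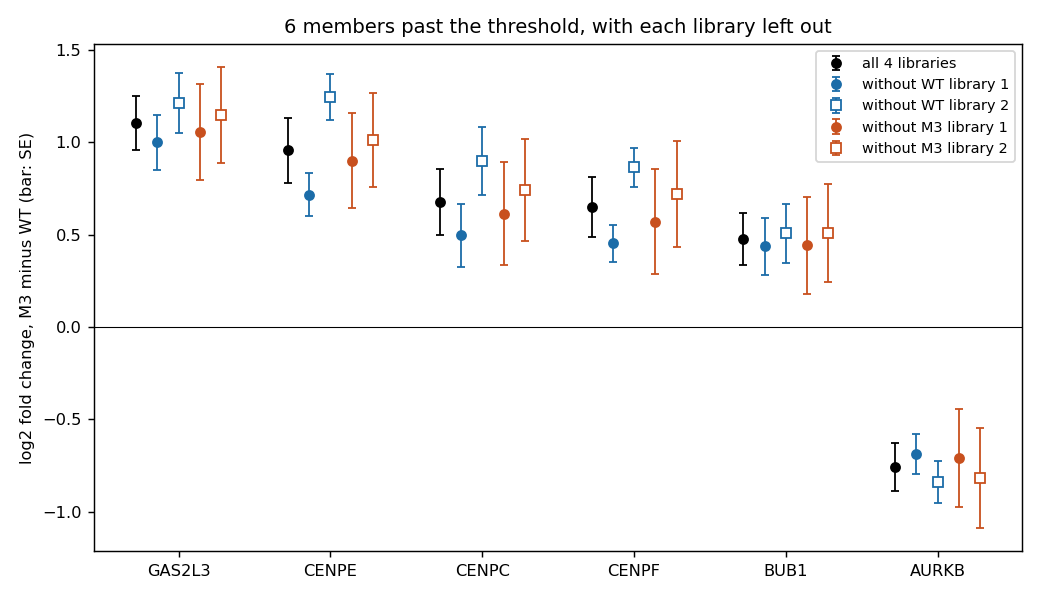
Log2 fold change between M3 and WT of the called members (vertical axis, bars are SE) with all 4 libraries and with each library left out in turn. CENPE ranges from 0.72 without WT 1 to 1.25 without WT 2, and GAS2L3 and CENPE pass the threshold in each fit.

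Per kb of transcript, the order of the group means at the top differed. The WT mean of CENPM leaned on WT 1, with 103 CPM there and 69.1 in WT 2. In WT the highest mean levels were 89.2 CPM per kb for CENPM, 81.2 for TPX2 and 76.9 for AURKB, and CENPF, which led by plain CPM, had 43.4. In M3 they were 81.2 for TPX2, 68.1 for CENPF and 61.0 for CENPM, and AURKB had 45.3. The low end was the same in both groups, with CENPP at 0.203 in WT and 0.371 in M3, and CENPC next at 1.97 and 3.17 CPM per kb. CENPA and CENPC, which meet at the same nucleosome, differed in level, with 22.2 and 2.57 CPM per kb over the 4 libraries. The NDC80 complex subunits, which assemble in equal numbers, had 18.3 (NDC80), 31.6 (NUF2), 43.7 (SPC24) and 5.76 (SPC25) CPM per kb over the same libraries. These are levels from 1 transcript length per gene, with no test between genes.

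By position, 6 members (CENPC, CENPE, CENPU, MAD2L1, PLK4 and CCNA2) lie on chromosome 4 in RefSeq. CCNB1 and CENPH are neighbours on chromosome 5, 11337 bases apart. Their log2 differences were -0.26 and -0.37, and neither passed. In 6 members more than 10% of exonic bases are shared with another gene: CENPP (42.7%), CENPO (31.4%), CENPN (22.8%), PLK1 (12.5%), CENPU (11.7%) and BUB1B (10.2%). BUB1B shares its bases with a gene on the same strand, so no strand setting could separate them. The others share theirs with genes on the opposite strand, and no source used here gives the strand setting of the counting. The values of these 6 are therefore uncertain. None of them was called. None of the 6 called members shares as much as 1% of its exonic bases with another gene.

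Of 79 other genes of the pathway that were tested, 5 rose and 8 fell, 16.5% beside the background of 15.8%, with a median log2 fold change of -0.14. Of the other centromere genes, CENPT (-0.62 ± 0.13), a network protein that binds the NDC80 complex, and CENPB (-0.51 ± 0.13), which binds alpha-satellite DNA, fell. In the outer kinetochore, KNL1, the platform for BUB1 and BUB3, rose by 0.95 ± 0.20. The MIS12 complex subunits PMF1 (-0.81 ± 0.17) and DSN1 (-0.55 ± 0.13) fell. SGO2, which protects centromeric cohesion, rose by 0.84 ± 0.14, and BOD1, needed for chromosome biorientation, fell by 0.45 ± 0.12.

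Of 20 genes of the anaphase-promoting complex and its targets, the subunit CDC27 rose by 0.70 ± 0.13 and its ubiquitin-conjugating enzyme UBE2C fell by 0.53 ± 0.14. Of 14 mitotic entry genes, ARPP19, an inhibitor of the phosphatase PP2A, rose by 0.54 ± 0.13, and the phosphatase CDC25B fell by 0.65 ± 0.13. Among 16 regulators of G2 and mitotic genes, which include FOXM1, MYBL2 and the MuvB and NF-Y subunits, E2F1 fell by 0.53 ± 0.12 and 15 did not pass. With length and GC trends removed, 2 of these 13 genes stayed past the threshold in the same direction, DSN1 at -0.57 (adjusted p = 0.021) and CDC25B at -0.50 (adjusted p = 0.022). The values given for these pathway genes are edgeR log2 fold changes with their SE, and each gene named with an SE was called at an adjusted p under 0.05.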

How the data were processed

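Poly(A) RNA sequencing of 2 WT and 2 M3 libraries was used. The authors deposited raw read counts, 1 whole number per gene symbol and library. HISAT2 2.1.0, the hg38 build, HTSeq and DESeq2 are named in the submitters' processing notes. No annotation or strand setting was given in the sources used here. Reads assigned to no feature (23.2% to 27.5% of counted reads) entered neither library sizes nor tests.

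M3 was compared with WT with edgeR 4.0.16 in R 4.3.3 (filterByExpr, TMM, robust quasi-likelihood F test, no covariates), Benjamini-Hochberg adjusted over all 14141 tested genes, at a threshold of 0.05. BCV, the biological coefficient of variation, came to 0.124. Permutation tests are left out because 4 libraries allow no exact p under 0.333. The fit was tested on simulated counts. Transcript length, GC content and exon overlaps came from GENCODE 29, and 25907 of 28063 symbols had a transcript. In an alternative fit, splines with 5 degrees of freedom in log length and GC were removed per library as offsets. Promoter windows and gene positions came from RefSeq GRCh38.p14. Alternatives also covered scaling, count filters, DESeq2 1.42.0, limma 3.58.1 (voom), a replicate block and leaving out each library.

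Members, gene lists and alternatives were chosen with earlier results of these data known. Values per library are given for called members and, in each role group, for the member of largest fold change and the one of highest CPM, and of other pathway genes up to 4 called per list are named. A gene that would be named by this rule is not reported here. CENPA, CENPM, CENPW, CENPN, SPC24, SPC25, BUB1B, PLK1 and the neuroblastoma markers were given values outside this rule, after these were seen.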

Additional observations from a re-analysis of the deposited data

How the results depend on the processing

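With 2 libraries per group, leaving out 1 moved most counts. The count of all genes called, 2232, ran from 359 to 6735, members higher (5) from 2 to 14, members lower (1) from 1 to 11, the members' median (0.00) from -0.018 to 0.082 and IWS1 (0.65) from 0.60 to 0.69. Total-count scaling called 1120 genes and 3 members higher, and it moved the median of all genes by 0.12 and that of the members to 0.12. Without it 1295 genes were higher and 937 lower (58.0% higher), and with it 856 and 264 (76.4%). No count filter called 3945 genes and 3 members lower, and DESeq2 3 members lower. An adjusted p under 0.01 left 0 members in either direction. Removing length and GC trends called 681 genes (296 higher and 385 lower, 43.5% higher) and 2 members each way, with a members' median of -0.044. With the longest transcripts, added after seeing the data, it called 685 genes and again 2 members each way. With the principal transcripts and the replicate block, removing the trends called 998 genes and 2 members higher, with a median of -0.041. AURKB was not called in that fit. Of the members, 8 changed sign in all 3 of these fits: CENPA, CENPK, BUB3, MAD2L1, PLK1, PLK4, CDCA8 and NUF2. All 8 have the same transcript length in both transcript choices, so the fit with the longest transcripts is no separate check for them. Counting only genes that passed in either fit or lay over 1 SE from 0 in both, the sign reversed for BUB3 (-0.46, -0.44 and -0.45, in this order), PLK4 (-0.19, -0.16 and -0.18) and the pathway gene ARPP19 (-0.059, -0.036 and -0.059). The cause was not tested, beyond what fewer libraries, fewer genes or the removed trends bring by construction.

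Replicate numbers did not pair the samples: deviations of same-numbered libraries had a correlation of -0.14. The replicate block called 2315 genes and, of the members, 4 higher and 2 lower: BUB1 was lost (adjusted p = 0.102, edgeR) and SPC24 gained (0.0466). A crossed replicate block, added after seeing the data, called 5314 genes, 14 members higher and 7 lower. The lowest member count, 16 reads of CENPP, limits what can be said of that gene.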

Other observations

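Lists set beside the members gave these values in edgeR's test of M3 against WT. Of 12 mitotic kinesins, the motors that build and move the spindle, 3 rose and none fell, with a median log2 fold change of 0.25. Over all tested genes 9.16% rose and 6.63% fell. KIF20B, which acts in cytokinesis, had 34.8 and 43.3 CPM in WT, compared with 83.3 and 80.1 in M3, a difference of 1.06 ± 0.15. KIF14, also of cytokinesis, had 0.91 ± 0.16, and KIF11, which pushes the spindle poles apart, had 0.53 ± 0.13. The M3 and WT libraries did not overlap for any of the 12, with 9 higher and 3 lower in M3, where the shares over all tested genes were 34.0% and 34.1%. With length and GC trends removed the kinesins' median was 0.07 and all 3 calls were lost: KIF20B stood at 0.24 (adjusted p = 0.162, edgeR), KIF14 at 0.30 (0.0969) and KIF11 at 0.06 (0.736).

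Of 43 genes of DNA replication origins and forks, 1 rose and 3 fell, beside the same shares of 9.16% and 6.63% over all tested genes, with a median of -0.15. CDT1, which loads the MCM helicase onto origins, had 199 and 164 CPM in WT, against 102 and 93.3 in M3, a difference of -0.89 ± 0.14. RFC2, of the clamp loader, had -0.55 ± 0.14, and GINS4, of the replicative helicase, had -0.52 ± 0.14, while RFC3 rose by 0.42 ± 0.12. With the trends removed, CDT1 (-0.66, adjusted p = 0.00763, edgeR) and GINS4 (-0.61, 0.0272) were still called, and RFC2 (-0.26, 0.133) and RFC3 (0.21, 0.193) were not. Of 81 cytosolic ribosomal protein genes, whose transcripts are short (median 1004 nt), 64 fell and none rose, with a median of -0.77, and with the trends removed the median was -0.49.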
